A study of Mus musculus with 9 samples.

Results

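The β-arrestins and the G protein-coupled receptor (GPCR) kinases are gene families that turn GPCR signals off at the receptor. Of the 30588 genes in the deposited expression table, 7 belong to them and were taken by symbol. They are the β-arrestin genes *Arrb1* and *Arrb2* and the kinase genes *Adrbk1*, *Adrbk2*, *Grk4*, *Grk5* and *Grk6*. *Adrbk1* and *Adrbk2* encode GRK2 and GRK3 and are named *Grk2* and *Grk3* in current annotation. They were chosen as gene families, and all 7 genes passed the filter on low counts.

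When an agonist holds a receptor in its active form, a GPCR kinase phosphorylates the receptor's cytoplasmic tail or loops. A β-arrestin then binds the phosphorylated receptor, blocks its contact with the G protein, and links it to clathrin and the adaptor AP-2 for endocytosis. Bound β-arrestins also scaffold kinases such as Src and ERK. In dendritic cells (DCs) this cycle acts on receptors for chemokines, complement and prostaglandins, and some of the last couple to Gs and raise cAMP.

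RNA-Seq was done on 5 WT and 4 Δ*Gnas* libraries of DCs, both on the C57BL/6J strain, to ask how cells with chronically low cAMP differ from WT cells. Δ*Gnas* DCs, labelled GNAS_KO, came from mice with a floxed *Gnas* allele and a Cre driven by CD11c, so that Gαs is lost from cells that express CD11c. Marrow from the leg bones was grown for 6 days in GM-CSF, after which beads were used to select CD11c+ cells, and no further treatment was given. By label the WT libraries were from 2 males and 3 females and the Δ*Gnas* libraries from 2 males and 2 females, and neither age nor any Cre or floxed allele of the WT mice is given in the sources used here. The CD11c-driven Cre leaves some *Gnas* in place, which limits the model to a strong reduction. *Gnas* was at 404 to 532 TPM (transcript abundance scaled by length and to 1 fixed total per library) in WT against 48.0 to 63.6 TPM in Δ*Gnas* libraries, a log2 fold change of -2.96 (SE 0.16, edgeR quasi-likelihood test, adjusted p = 2.8e-05).

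The libraries held 34252701 to 49427934 estimated counts. WT replicate 3 stood apart by a mitochondrial share of 1.39% of TPM against 5.85 to 8.54% in the other 8 libraries. WT replicate 7 is labelled female but had a summed Y-linked level of 102 TPM, against 1.36 to 1.76 TPM in the other libraries labelled female. That level lay within the 102 to 135 TPM of the libraries labelled male. The label was kept. Markers of the labelled cell type were present, with 15 of 15 DC markers above 1 TPM in at least 1 library. *Xcr1* did so only in Δ*Gnas* libraries, with a WT maximum of 0.293 TPM. Summed levels were 20713 to 33326 TPM in WT against 28148 to 34047 TPM in Δ*Gnas* libraries. *Cd74*, *H2-Aa* and *H2-Ab1*, at WT means of 12059, 6677 and 4209 TPM, made up most of the sum. Of 14 tested DC markers 4 were higher and 2 lower, against 5.41% and 4.15% of all tested genes. The higher were *Cd24a*, *Itgax*, *H2-Ab1* and *Sirpa*, and the lower *Zbtb46* and *Ccr7*. Among markers of other cell types, 7 of 12 tested macrophage markers were lower in Δ*Gnas* DCs and 0 were higher, against 4.15% and 5.41% of all tested genes. The summed level of that list was 4275 to 9412 TPM in WT against 2238 to 3193 TPM in Δ*Gnas* libraries, and of its 14 measured genes *Vsig4* stayed below 1 TPM throughout. The summed level of 8 eosinophil markers was 12.0 to 26.3 TPM in WT against 81.3 to 146 TPM in Δ*Gnas* libraries, with *Epx* and *Il5ra* below 1 TPM throughout. Its called genes were *Ear1* and *Siglecf*, whose means of 1.30 and 6.38 TPM in WT and 54.3 and 28.1 TPM in Δ*Gnas* DCs made up most of the difference in the sum. In such bulk samples a smaller number of cells of a type and less RNA per cell cannot be told apart.

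Each member has a relative close enough in sequence to ask whether reads could be assigned to the wrong gene. In the mouse transcripts of GENCODE M21 (GRCm38), the coding sequences of *Arrb1* and *Arrb2* were identical at 72.9% of 1203 aligned bases and those of *Adrbk1* and *Adrbk2* at 74.7% of 2064. *Grk5* and *Grk6* were identical at 70.2%, *Grk4* at 65.6 and 65.7% with these, and the 6 pairs of *Adrbk1* or *Adrbk2* with *Grk4*, *Grk5* or *Grk6* at 54.4 to 60.2%. The longest stretches shared by the closest pairs are shown because they mark where a short read is hardest to place. Capitals mark the shared stretch and lower case the bases on each side, 5′ to 3′ on the coding strand.
*Arrb1*, chr7:99598503-99598550, plus strand: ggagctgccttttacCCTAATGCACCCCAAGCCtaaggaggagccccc
*Arrb2*, chr11:70439674-70439721, plus strand: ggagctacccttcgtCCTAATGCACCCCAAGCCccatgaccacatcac
*Adrbk1*, chr19:4305937-4305996, minus strand: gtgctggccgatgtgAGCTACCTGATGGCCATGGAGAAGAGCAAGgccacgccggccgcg
*Adrbk2*, chr5:113015402-113015461, minus strand: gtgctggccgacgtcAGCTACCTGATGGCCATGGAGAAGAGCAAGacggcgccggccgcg
All 4 windows lie within a single coding exon. The β-arrestin genes shared at most 18 bases in a row and *Adrbk1* and *Adrbk2* at most 30. No stretch of 31 bases, counted over all annotated transcripts, occurred in more than 1 of the 7 genes.

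Outside the families, stretches of 31 bases that also occur in transcripts of other genes made up 0.138% of those of *Adrbk2*, 0.155% of *Adrbk1*, 1.12% of *Arrb2*, 1.26% of *Arrb1*, 2.21% of *Grk6* and 2.30% of *Grk5*. In *Grk4* they made up 12.6%, or 610 of 4824, the largest share of the 7. The authors assigned reads to an Ensembl set of transcripts and not to GENCODE M21. Shared stretches were not counted in that set, so these shares need not hold for the deposited levels. The shared stretches of *Arrb2* all belonged to *Mir7115*, a microRNA annotated inside it. *Arrb1*, *Grk4* and *Grk5* overlap genes on the opposite strand, of which *Zfp950*, across *Grk5*, codes for a protein. The library kit kept strand, but whether the assignment of reads used it is not given in the sources used here. *Arrb2* is the shortest of the genes, at chr11:70432635-70440828, and *Grk5* the longest, at chr19:60889749-61095968 (GRCm38).

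*Arrb2*, which encodes β-arrestin 2, was lower in Δ*Gnas* DCs, and it was the only 1 of the 7 genes that passed the test. Its level in WT DCs was 543, 476, 467, 384 and 389 TPM in replicates 3, 4, 5, 6 and 7. In Δ*Gnas* DCs it was 361, 226, 235 and 211 TPM in replicates 3, 4, 6 and 7. The genotypes did not overlap: the highest Δ*Gnas* library, replicate 3, lay below the lowest WT library, and the other 3 Δ*Gnas* libraries lay close together well below it. The mean was 452 ± 66.5 TPM in WT (SD, n = 5) against 258 ± 69.1 TPM in Δ*Gnas* DCs (SD, n = 4). *Arrb2* was 1.75-fold higher in WT than in Δ*Gnas* DCs, a log2 fold change of -0.81 (SE 0.15, 95% interval -1.14 to -0.48, edgeR quasi-likelihood test, adjusted p = 0.00956). With each library scaled by its TMM factor, WT libraries held 388 to 480 CPM (counts scaled to 1 fixed library total) and Δ*Gnas* libraries 220 to 333 CPM, so the gap between the genotypes was also present on that scale.

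The estimated counts of *Arrb2* ran from 8910 to 26853 per library, and its mean CPM exceeded that of 97.1% of the tested genes. These counts are rescaled TPM and do not give the number of reads. With any 1 of the 9 libraries left out, the log2 fold change stayed between -0.97, without Δ*Gnas* replicate 3, and -0.74, without Δ*Gnas* replicate 7, and adjusted p between 0.00263 and 0.0393 (edgeR). By p-value *Arrb2* ranked 312th of 11862 tested genes. The macrophage marker sums given above were also lower in every Δ*Gnas* library than in every WT library, and their part in its level was not tested.

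**Figure D1:**
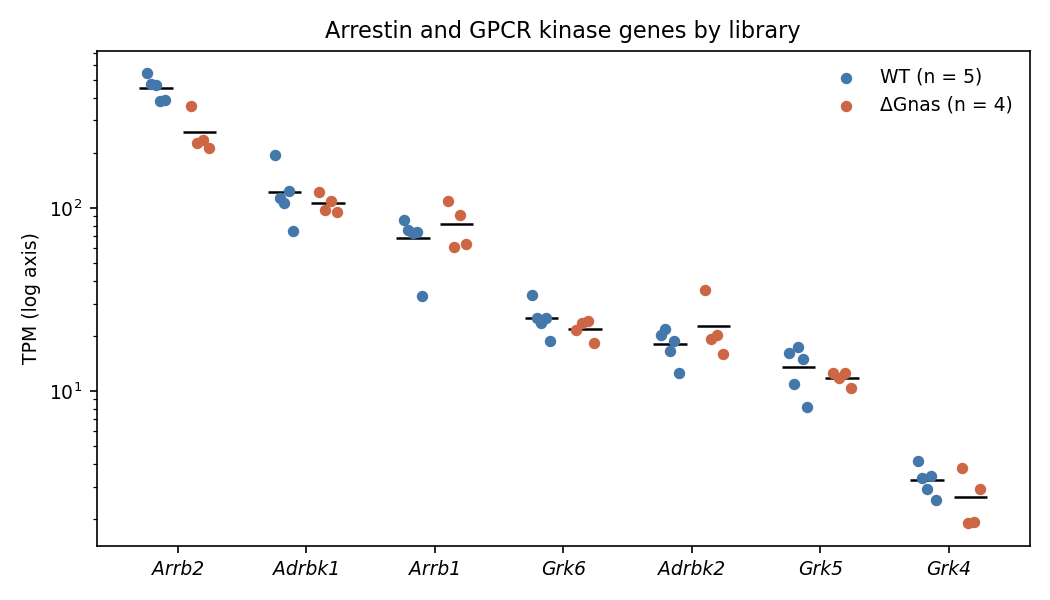
Level of each gene in every library. The vertical axis is TPM on a log scale, each point is 1 library of WT (n = 5) or Δ*Gnas* (n = 4) DCs, and bars mark the genotype means. Only *Arrb2* separates the genotypes, at 384 to 543 TPM in WT against 211 to 361 TPM in Δ*Gnas* libraries.

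*Arrb1*, which encodes β-arrestin 1, the other β-arrestin made outside the retina, did not pass the test. WT libraries held 85.3, 75.8, 72.7, 73.8 and 32.8 TPM in replicates 3, 4, 5, 6 and 7, and Δ*Gnas* libraries held 109, 61.5, 91.7 and 63.2 TPM in replicates 3, 4, 6 and 7. The genotypes overlapped, and WT replicate 7 was the lowest library by a wide margin while the other 4 WT libraries lay between 2 of the Δ*Gnas* libraries and the other 2. Means were 68.1 ± 20.3 TPM in WT (SD, n = 5) against 81.3 ± 23.0 TPM in Δ*Gnas* DCs (SD, n = 4), with a log2 fold change of 0.28 (SE 0.21, edgeR, adjusted p = 0.476). The 95% interval of -0.19 to 0.75 holds a rise of up to 1.68-fold and a fall to 0.875 of the WT level. Without WT replicate 7 the log2 fold change was 0.13, and without Δ*Gnas* replicate 3 it was 0.14.

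The balance of the β-arrestin transcripts differed between the genotypes. TPM is scaled by transcript length, so levels of different genes can be set side by side. *Arrb2* exceeded *Arrb1* 6.37, 6.29, 6.42, 5.21 and 11.8 times in WT replicates 3, 4, 5, 6 and 7 and 3.32, 3.67, 2.57 and 3.34 times in Δ*Gnas* replicates 3, 4, 6 and 7. Every Δ*Gnas* ratio lay below every WT ratio, and the ratio of 11.8 belongs to WT replicate 7, where *Arrb1* was low. *Arrb2* made up 87.1 ± 3.08% of the summed β-arrestin TPM in WT (SD, n = 5, range 83.9 to 92.2%) and 76.1 ± 2.86% in Δ*Gnas* DCs (SD, n = 4, range 72.0 to 78.6%). The sum itself was 520 ± 81.7 TPM in WT against 339 ± 89.6 TPM in Δ*Gnas* DCs, with ranges of 422 to 629 and 274 to 469 TPM that overlapped. These ratios and sums follow from the levels above, and no test was run on them or on the difference between the changes of *Arrb1* and *Arrb2*.

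**Figure D2:**
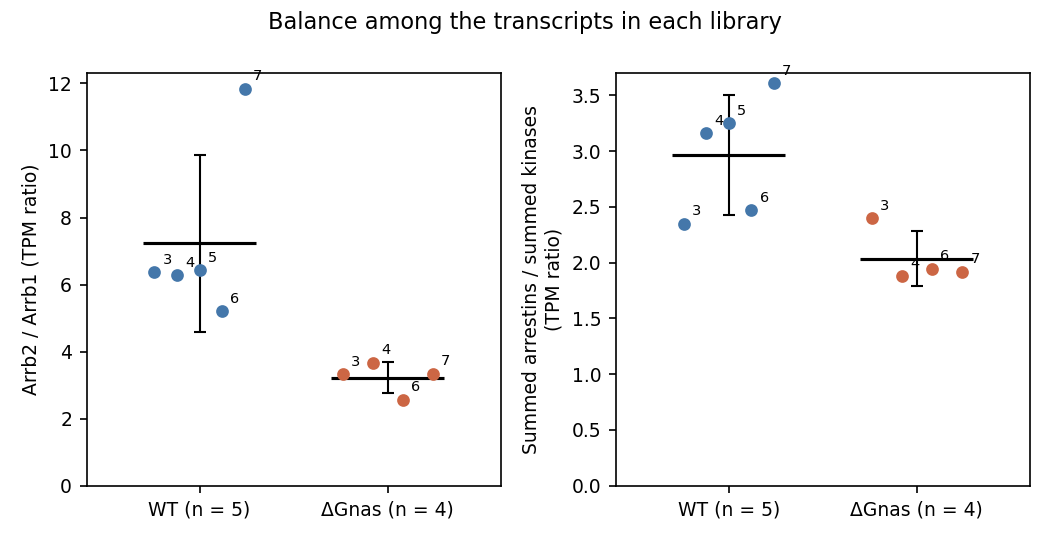
Balance among the transcripts. Left, the ratio of *Arrb2* to *Arrb1* TPM and, right, the ratio of summed β-arrestin to summed kinase TPM, with 1 point per library labelled by replicate number, and lines for the mean ± SD. The left ratios were 5.21 to 11.8 in WT and 2.57 to 3.67 in Δ*Gnas* libraries, while the right ratios overlapped at 2.35 to 3.61 and 1.88 to 2.40.

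None of the 5 kinase genes passed the test. *Adrbk1*, the gene of the ubiquitous GRK2, which binds Gβγ subunits at the membrane and in mice is needed for embryonic development, was the most abundant of them. Its level was 193, 114, 106, 123 and 74.9 TPM in WT replicates 3, 4, 5, 6 and 7 and 122, 97.0, 109 and 95.4 TPM in Δ*Gnas* replicates 3, 4, 6 and 7. All 4 Δ*Gnas* libraries lay within the WT range, whose ends were WT replicate 3 and WT replicate 7. The log2 fold change was -0.17 (SE 0.16, 95% interval -0.52 to 0.19, edgeR, adjusted p = 0.578).

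*Adrbk2*, the gene of GRK3, the closest relative of GRK2, had the largest positive estimate of the 7 genes. WT libraries held 20.3, 21.9, 16.5, 18.8 and 12.5 TPM in replicates 3, 4, 5, 6 and 7, and Δ*Gnas* libraries held 35.5, 19.2, 20.1 and 15.9 TPM in replicates 3, 4, 6 and 7. Only Δ*Gnas* replicate 3 lay above the WT range, and the other 3 lay within it. The log2 fold change of 0.33 (SE 0.19, 95% interval -0.10 to 0.76, edgeR, adjusted p = 0.349) was 0.08 without that library. *Adrbk2* made up 10.2 ± 1.77% of the summed kinase TPM in WT (SD, n = 5) against 13.4 ± 3.19% in Δ*Gnas* DCs (SD, n = 4), with 18.1% in Δ*Gnas* replicate 3.

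*Grk6*, *Grk5* and *Grk4* form the other branch of the family, whose proteins attach to the membrane through lipids and not through Gβγ. *Grk6*, the gene of a kinase prominent in immune cells that acts on CXCR4 among other receptors, was at 18.8 to 33.4 TPM in WT against 18.3 to 24.2 TPM in Δ*Gnas* libraries. Its log2 fold change of -0.17 had the smallest standard error of the 7 (SE 0.11, 95% interval -0.42 to 0.07, edgeR, adjusted p = 0.379), so that the interval holds a fall to 0.748 of the WT level but no rise above 1.05-fold. *Grk5*, whose kinase can also enter the nucleus, was at 8.16 to 17.3 TPM in WT against 10.4 to 12.6 TPM in Δ*Gnas* libraries. All 4 Δ*Gnas* values of *Grk5* lay inside the WT range, and the log2 fold change was -0.17 (SE 0.16, edgeR, adjusted p = 0.570).

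*Grk4*, a kinase best known from testis and kidney, was the lowest of the 7. It was at 2.52 to 4.14 TPM in WT against 1.89 to 3.77 TPM in Δ*Gnas* libraries, with 73 to 205 estimated counts per library. Δ*Gnas* replicates 4 and 6 lay below the WT range and replicates 3 and 7 within it. The log2 fold change was -0.31 (SE 0.21, 95% interval -0.79 to 0.16, edgeR, adjusted p = 0.424).

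Of the 7 genes 1 passed the test, against 9.56% of all 11862 tested genes. In the direction lower in Δ*Gnas* DCs it was 1 of 7 against 4.15%, in the direction higher it was 0 of 7 against 5.41%, and 1 of 7 had TPM ranges without overlap, against 10.6%. With 7 genes, 1 call is near the background share, and the counts show nothing particular to the families as a group. By estimate 5 of the 7 were lower and 2 higher, with a median log2 fold change of -0.17 against -0.0043 over all tested genes. The 95% intervals of the 6 other genes include both a rise and a fall, so a p above the threshold does not show that their levels were alike.

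**Figure D3:**
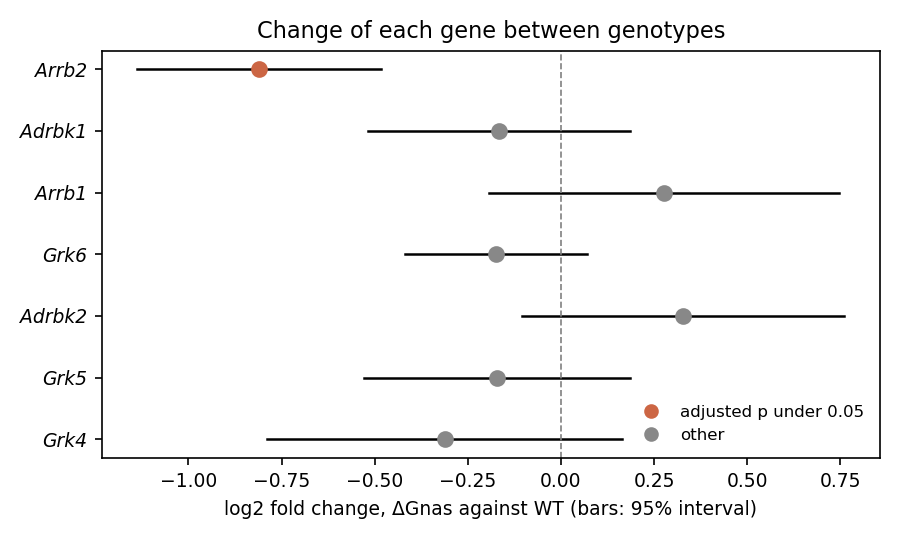
Change of each gene between the genotypes. The horizontal axis is the log2 fold change of Δ*Gnas* against WT DCs by edgeR, points are estimates, bars are 95% intervals, and colour marks an adjusted p under 0.05. *Arrb2*, at -0.81, is the only gene whose interval, -1.14 to -0.48, lies away from 0.

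The order of the levels was nearly the same in every library. From highest to lowest it ran *Arrb2*, *Adrbk1*, *Arrb1*, *Grk6*, *Adrbk2*, *Grk5* and *Grk4* in 7 of 9 libraries. The exceptions were WT replicate 5, where *Grk5* stood above *Adrbk2*, and Δ*Gnas* replicate 3, where *Adrbk2* stood above *Grk6*. *Arrb2* led the most abundant kinase gene, *Adrbk1*, in 9 of 9 libraries by 2.15 to 5.19 times, and their ranges did not overlap in either genotype. *Adrbk1* exceeded *Arrb1* within each of 9 libraries by 1.13 to 2.28 times, but their ranges over the libraries of a genotype overlapped in both genotypes. *Grk6* and *Adrbk2*, at ratios of 0.606 to 1.65, also overlapped in both genotypes, and *Adrbk2* and *Grk5*, at 0.955 to 2.84, overlapped in WT only. *Arrb1* and *Grk6*, at 1.75 to 5.05, overlapped in WT only as well, and *Grk5* stood above *Grk4* by 3.23 to 6.56 times with no overlap in either genotype.

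Summed over the 5 kinase genes, the level was 182 ± 54.4 TPM in WT (SD, n = 5) against 165 ± 22.9 TPM in Δ*Gnas* DCs (SD, n = 4), with overlapping ranges of 117 to 267 and 143 to 196 TPM. *Adrbk1* held most of it, 66.3 ± 3.49% in WT and 64.4 ± 1.89% in Δ*Gnas* DCs. *Grk6* held 14.1 ± 1.30% and 13.4 ± 1.88%, *Grk5* 7.55 ± 1.78% and 7.19 ± 0.556%, and *Grk4* 1.85 ± 0.225% and 1.59 ± 0.465%. Each of these shares differed between the genotypes by less than its spread within WT, apart from *Grk4*, whose difference was within its spread among Δ*Gnas* libraries. The share of *Adrbk2* given above, 10.2 ± 1.77% and 13.4 ± 3.19%, differed by more than either SD, with 18.1% in Δ*Gnas* replicate 3. The β-arrestin sum exceeded the kinase sum 2.97 ± 0.536 times in WT and 2.04 ± 0.245 times in Δ*Gnas* DCs, and the ranges, 2.35 to 3.61 and 1.88 to 2.40, overlapped at Δ*Gnas* replicate 3 and WT replicate 3.

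Libraries differed within a genotype across several of the genes at once. In TPM, WT replicate 3 was the highest WT library for 5 of 7 genes and WT replicate 7 the lowest for 6 of 7. Among Δ*Gnas* libraries replicate 3 was the highest for 5 of 7 and replicate 7 the lowest for 5 of 7. After TMM scaling, with factors of 1.21 for WT replicate 3 and 0.825 for WT replicate 7, WT replicate 3 was the highest WT library for 2 of 7 and WT replicate 7 the lowest for 5 of 7, so that the lead of WT replicate 3 depended on the scale. The counts for Δ*Gnas* replicates 3 and 7 were the same on both scales. Relative to the mean, the SD among WT libraries ran from 14.7% for *Arrb2* to 35.8% for *Adrbk1*, and among Δ*Gnas* libraries from 8.68% for *Grk5* to 38.6% for *Adrbk2*.

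*Arrb2* was lower in Δ*Gnas* DCs of both labelled sexes. In libraries labelled male it was at 476 and 543 TPM in WT against 226 and 361 TPM in Δ*Gnas* DCs, and the ratio of the Δ*Gnas* to the WT mean was 0.575. In libraries labelled female it was at 384 to 467 TPM in WT against 211 and 235 TPM in Δ*Gnas* DCs, a ratio of 0.540. The genotypes overlapped in neither sex. Without WT replicate 7, the library whose Y-linked level goes against its label, the WT libraries labelled female were at 384 and 467 TPM. An interaction of genotype and sex passed the test for 0 of 7 genes in edgeR, against 0% of all tested genes, and 0 of 7 had an unadjusted p under 0.05, against 1.45% of all. The counts for the 7 genes were also 0 and 0 with limma-voom and without WT replicate 7. With 2 Δ*Gnas* libraries of each sex, a difference between the sexes could go undetected.

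Among the proteins that work with β-arrestins and the kinases, genes were taken from 8 lists, and the count called in each is to be read against the 9.56% of all tested genes that passed in either direction. None of 5 tested α-arrestins, distant relatives that act as ubiquitin ligase adaptors, passed the test, and the most abundant, *Txnip*, was at 104 ± 20.9 TPM in WT against 137 ± 53.7 TPM in Δ*Gnas* DCs (edgeR, adjusted p = 0.508). Of the visual arrestins and rhodopsin kinase, only *Sag*, the arrestin of rods, passed the filter, at a mean of 1.24 TPM across the WT libraries, and it did not pass the test. Of 14 tested genes for β-arrestin ubiquitination and sorting 0 passed, with *Mdm2*, the ubiquitin ligase of β-arrestin 2, at 101 ± 23.3 TPM and 81.7 ± 13.6 TPM. Of 16 tested genes for receptor recycling 0 passed either, and *Rab7*, a GTPase of late endosomes, was at 546 ± 79.02 and 545 ± 56.9 TPM. An unadjusted p under 0.05 (edgeR) was found for 1 of the α-arrestins, 1 of the genes for ubiquitination and sorting and 2 of those for recycling. Many of all tested genes lay under that threshold, since the unadjusted p of *Mdm2*, 0.0494, gave an adjusted p of 0.209 (edgeR). These unadjusted counts therefore show nothing particular to the lists. The count of α-arrestins that passed the test was 2 with a replicate block and 1 with DESeq2, with limma-trend or without Δ*Gnas* replicate 3. The count of recycling genes that passed was 1 with a replicate block and with DESeq2. Of all genes, 1134 passed in the main test, 1188 with the block and 1769 with DESeq2. With limma-trend 852 and 826 passed, and without Δ*Gnas* replicate 3 it was 1586. The median log2 fold changes of these lists were -0.35 for the α-arrestins, -0.04 for ubiquitination and sorting, and -0.01 for recycling.

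Of 17 tested genes for clathrin and AP-2 endocytosis, with dynamins and accessory adaptors, 1 was higher and 0 were lower, against 5.41% and 4.15% of all tested genes. That gene, *Hip1*, an adaptor that ties clathrin to actin, rose from 4.24 ± 0.817 TPM in WT (SD, n = 5) to 9.10 ± 1.14 TPM in Δ*Gnas* DCs (SD, n = 4), with ranges of 3.17 to 5.19 and 7.80 to 10.3 TPM that did not overlap. Its log2 fold change was 1.11 (SE 0.17, edgeR, adjusted p = 0.00537). *Clta*, the gene of a clathrin light chain and the most abundant of the list, was at 453 ± 93.8 and 441 ± 11.7 TPM, and the median change of the list was -0.03. With a replicate block the count was 2.

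Of 28 tested kinases and partners that β-arrestins scaffold, 4 were higher and 2 lower, against 5.41% and 4.15% of all tested genes, with a median log2 fold change of -0.06. Among those with the smallest p were *Ssh1*, the phosphatase that activates cofilin (16.7 to 10.2 TPM, log2 fold change -0.71), *Limk1*, the kinase that inactivates it (12.8 to 18.3 TPM, 0.53), and *Nsf*, an ATPase of membrane fusion (27.5 to 35.7 TPM, 0.40). Their adjusted p-values by edgeR were 0.0174, 0.0216 and 0.0248. Cofilin itself, *Cfl1*, the most abundant gene of the list, was at 1046 ± 134 and 1167 ± 58.2 TPM and did not pass the test. The count of 6 depended on the libraries: leaving out WT replicate 4 gave 1, and leaving out replicate 4, 6 or 7 of the Δ*Gnas* group gave 0, 2 and 1. In the same settings the number of all genes called also fell, from 1134 to 655, 580, 611 and 519.

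Of 15 tested proteins that bind and regulate the GPCR kinases 1 was higher and 0 were lower, against 5.41% and 4.15% of all tested genes. *Prkcb*, a protein kinase C isoform, was at 29.8 ± 8.10 TPM in WT against 59.6 ± 11.2 TPM in Δ*Gnas* DCs (log2 fold change 1.01, SE 0.23, edgeR, adjusted p = 0.0224). The median of the list was 0.17. Its count was 0 without WT replicate 4, WT replicate 7 or Δ*Gnas* replicate 4, 6 or 7. It was 2 without Δ*Gnas* replicate 3, and also with DESeq2, a replicate block or limma-trend. The number of all genes called was 519 to 873 where the count was 0 and 826 to 1769 where it was 2.

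Of 14 tested receptors on which kinases or β-arrestins are known to act, 2 were lower and 0 higher, against 4.15% and 5.41% of all tested genes, with a median log2 fold change of -0.24. *C5ar1*, the receptor of complement C5a, was at 61.3 ± 28.3 TPM in WT against 14.9 ± 4.10 TPM in Δ*Gnas* DCs (log2 fold change -2.10, SE 0.42, edgeR, adjusted p = 0.0135). *Ccr7*, the chemokine receptor that guides DCs to lymph nodes and the most abundant of the list, was at 968 ± 274 and 365 ± 278 TPM (log2 fold change -1.43, SE 0.40, edgeR, adjusted p = 0.04998). Its ranges, 661 to 1379 TPM in WT and 155 to 763 TPM in Δ*Gnas* libraries, overlapped, and its adjusted p lay just under the threshold. The count of the list was 1 without any 1 of the WT libraries or without Δ*Gnas* replicate 4, 6 or 7. It was also 1 with factors from the upper quartile or the filter of over 5 CPM. With DESeq2 it was 3, and without Δ*Gnas* replicate 3 it was 4. The number of all genes called was 519 to 1130 where the count was 1, 1769 with DESeq2 and 1586 without Δ*Gnas* replicate 3.

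**Figure D4:**
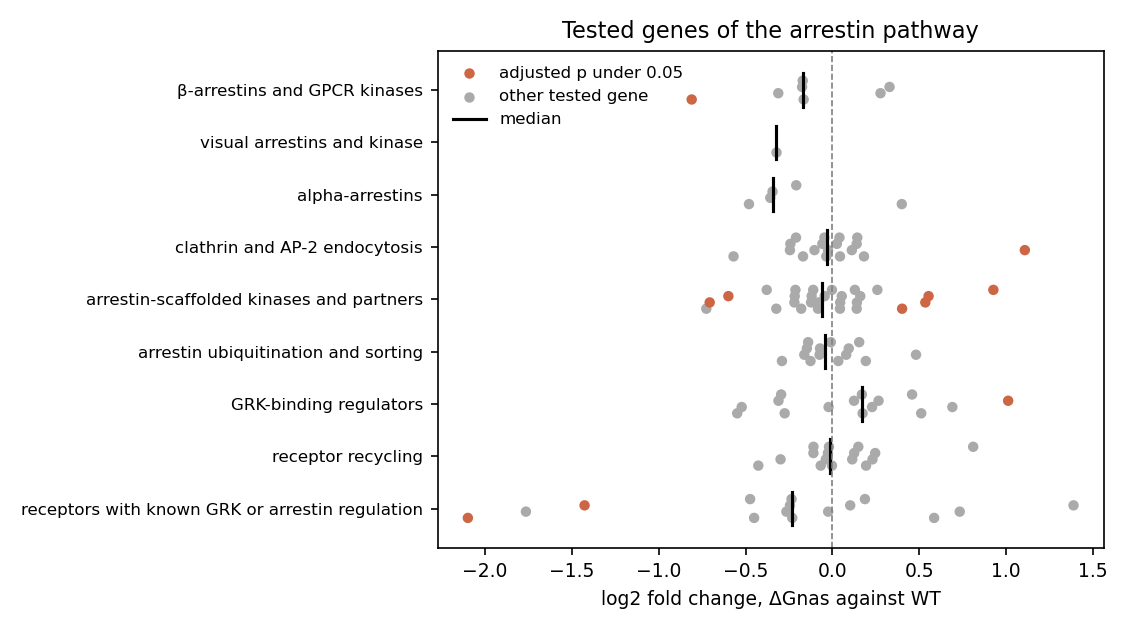
Change of the tested genes of each list. The horizontal axis is the log2 fold change of Δ*Gnas* against WT DCs by edgeR, each point is 1 gene, black bars are list medians, and colour marks an adjusted p under 0.05. Medians lie between -0.35 and 0.17, and *Arrb2* is the coloured point of the top row.

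Over the 9 libraries, the genes whose log2 CPM moved most like that of *Arrb2* were *Arfrp1*, a GTPase of the trans-Golgi network, and *Stat4*, a transcription factor activated by interleukin-12. Among 8770 genes compared, their Pearson r with *Arrb2* was 0.98 for both, with a Spearman rho of 0.90 for *Arfrp1* and 0.78 for *Stat4*. *Arfrp1* was at 43.2 TPM in WT against 28.9 TPM in Δ*Gnas* DCs on average, and *Stat4* at 96.2 and 15.5 TPM. Since the 9 libraries include both genotypes, any gene that fell with the genotype shares part of this likeness, and the values are a description of these libraries.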

How the data were processed

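The authors prepared stranded mRNA libraries, trimmed reads with BBDuk, assigned them to Ensembl transcripts (GRCm38) with Kallisto and summarised transcripts to genes with tximport. The submitters' processing notes also name FastQC and edgeR. Per gene and library the deposited values are TPM and an estimated count, and each estimated count equals the TPM times 1 factor per library, so it carries no gene length. Of 30620 rows, 27 that had become dates and 5 placeholders name no gene and were left out. They held 0.0843 to 0.121% of the counts.

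Estimated counts were rounded. Genes over 1 CPM in at least 3 libraries were tested, unpaired, with edgeR 4.0.16 (glmQLFit, glmQLFTest, TMM factors) under R 4.3.3, with Benjamini-Hochberg adjustment over all 11862 at 0.05. This test stands in for the exact test of the paper, itself run as an alternative. It was checked on counts simulated from the gene means and dispersions of these data. Such counts hold no outlying libraries, so the check could not cover them. Intervals use the t distribution with the fit's 10.1 degrees of freedom. The paper calls the samples biological replicates, and p-values measure the spread between them. Likeness was computed among genes with a mean of at least 5 CPM. Sequences and positions were read from GENCODE M21 with Biopython 1.88, and figures drawn with matplotlib 3.10.9 under Python 3.11.15.

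The 7 genes, the pathway lists and the marker lists were chosen with earlier results of these data known. Genes named are *Gnas*, the 7 members, of each pathway list up to 4 called genes by smallest p and the gene with the highest mean TPM, and the 2 genes most like each called member. Of the genes this rule names, 2 are not reported here. The single genes named beside the marker sums, *Mir7115* and *Zfp950* were named in addition, after their values or positions were seen. Marker lists covered stromal and erythroid cells, NK, B and T cells, mast cells with basophils, eosinophils, neutrophils, monocytes, macrophages, plasmacytoid DCs and DCs. Beside those in the report, calls (higher, lower) were 2 and 0 of 5 tested genes for eosinophils and also for T cells. They were 0 and 1 of 3 for mast cells and basophils, 1 and 0 of 5 for plasmacytoid DCs, and 0 for the others. The shares of all tested genes were 5.41% higher and 4.15% lower.

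Alternatives were DESeq2 1.42.0, edgeR's exact test, factors from the upper quartile, limma 3.58.1 (voom, and trend on log2 TPM with a pseudocount of 1 or 0.1), no filter, over 5 CPM, a replicate block, sex as a covariate, and leaving out each library.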

Additional observations from a re-analysis of the deposited data

Results flagged for a closer look

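A single library lay far from the others of its group for 2 of the 14 combinations of gene and genotype examined, where chance alone flags about 1 in 20 (Dixon's test at the 95% level). *Arrb1* in WT replicate 7 was at 32.8 TPM, the lowest of the 5 WT libraries, with a gap to the nearest of 0.760 of the group's range. After TMM scaling it was at 39.9 CPM against a highest WT value of 76.3 CPM. *Arrb2* in Δ*Gnas* replicate 3 was at 361 TPM, the highest of the 4 Δ*Gnas* libraries, with a gap of 0.837 of the range. The call on *Arrb2* held with that library and without it.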

How the results depend on the processing

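*Arrb2* passed the test under all 19 alternatives run, with log2 fold changes of -0.97 to -0.74 and adjusted p-values of 1.94e-06 to 0.0393. The other 6 genes passed under none of theirs, and none of their signs changed. *Grk4* had 18 alternatives, because no value was had with the filter of over 5 CPM. The range of log2 fold changes was 0.13 to 0.37 for *Arrb1*, -0.26 to -0.04 for *Adrbk1*, 0.08 to 0.46 for *Adrbk2*, -0.49 to -0.19 for *Grk4*, -0.28 to -0.05 for *Grk5* and -0.24 to -0.11 for *Grk6*. The median of all genes moved by no more than 0.02 under any of them.

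The number of all genes called was 1134, and 1769 with DESeq2. With 1 library left out it ran from 519 to 1586, with 655 without WT replicate 4 and 580, 611 and 519 without Δ*Gnas* replicates 4, 6 and 7. The cause was not tested, beyond the smaller number of samples. With a replicate block it was 1188, and *Arrb2* had a log2 fold change of -0.82 (edgeR, adjusted p = 0.0289). Deviations of same-numbered libraries correlated at 0.29, 0.25 and 0.16 for numbers 3, 6 and 7, each its own best match, but at -0.04 for number 4, which matched WT replicate 7 best. Since 1 pair did not deviate together, the numbers were not taken to pair the samples, although the other 3 hint at it. Of 152 counts of called genes in the pathway lists under alternatives, 35 moved by over 1.5 times, mostly counts of 0 to 2 genes. Estimated counts were lowest for *Grk4*, at 73 to 205 per library.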
